A study of Rattus norvegicus with 10 samples.

Results

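The genes described are enzymes and the carrier of the urea cycle in rat liver, together with the liver glutaminase that feeds it ammonia. Members were chosen as the genes of a list of 8 whose accessions have array probes, out of 13837 genes named on the array, and 7 of the 8 are described and counted here, namely Cps1, Otc, Ass1, Asl, Nags, Slc25a15 and Gls2. The study asked whether MSTF, a mixture of salvianolic acids and total flavonoids, changes the response of the rat to sulfur mustard (SM), an alkylating vesicant. Liver RNA of 10 male Sprague Dawley rats was put on 10 Agilent Whole Rat Genome arrays read in a single colour, with a separate array for each rat. The control group (3 arrays) received the solvent, propylene glycol. The SM group (4 arrays) received SM once under the skin at 3.5 mg/kg body weight, equal to 0.7 of the LD50. The SM + MSTF group (3 arrays) received the same SM dose and, 1 h later, MSTF by stomach tube at 120 mg/kg. All livers were taken 24 h after SM, and the age of the rats is not stated in the sources used here. The study describes groups of 10 rats, and how the rats of the arrays were drawn is not stated.

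Ammonia set free when amino acids are broken down is toxic, and the liver disposes of it as urea. The first steps of the cycle take place in the mitochondria of hepatocytes and the later ones in the cytosol, and the genes are expressed most strongly in the hepatocytes around the portal vein. Hepatocytes around the central vein instead bind the remaining ammonia as glutamine, so that urea formation and glutamine formation lie in different parts of the liver lobule.

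Signals are given as log2 of the background-subtracted, quantile normalized spot intensity, so that a difference of 1 is a doubling. Each of the 7 members had 1 probe, and each probe was well above background on all 10 arrays. The share of probes well above background ran from 51.9% to 61.4% per array, and no spot was saturated. limma was run once on all 10 arrays, for the 22991 of 41012 probes that stood well above background throughout 1 group or more. A probe was called where its Benjamini-Hochberg adjusted p over all tested probes was under 0.05 and its difference at least 1.5-fold. The number of arrays limits the precision, and log2 fold changes had a median standard error of 0.15 in SM against control and 0.16 in SM + MSTF against control. Of the 3 slides, the first carried the controls together with SM + MSTF replicate 3, the second only SM arrays, and the third SM + MSTF replicates 1 and 2, so that SM and the second slide cannot be told apart.

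None of the 7 members passed the test in any comparison. In SM against control 0 of 7 members were called, against 553 probes or 2.41% of all tested. For SM + MSTF against control it was 0 of 7, where limma called 0 probes (0%) in all, 2193 probes had an unadjusted p under 0.05 and the methods' t-test with the same fold minimum and no adjustment passed 285. For SM + MSTF against SM it was 0 of 7, beside 290 probes or 1.26%. At an unadjusted p under 0.05 in limma stood Nags alone in SM against control (16.4% of all tested probes), Asl alone in SM + MSTF against control (9.54%) and no member in SM + MSTF against SM (15.9%). A p that misses the threshold does not show that the groups were equal, and the 95% intervals bound what could have been missed. They lay within 1.5-fold in both directions for 6 members in SM against control, 6 in SM + MSTF against control and 5 in SM + MSTF against SM, and within 2-fold for all 7 in each. The median log2 fold change of the members was 0.06, -0.02 and -0.17 in the 3 comparisons in that order, beside 0.03, 0.00 and -0.02 over all tested probes.

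**Figure D1:**
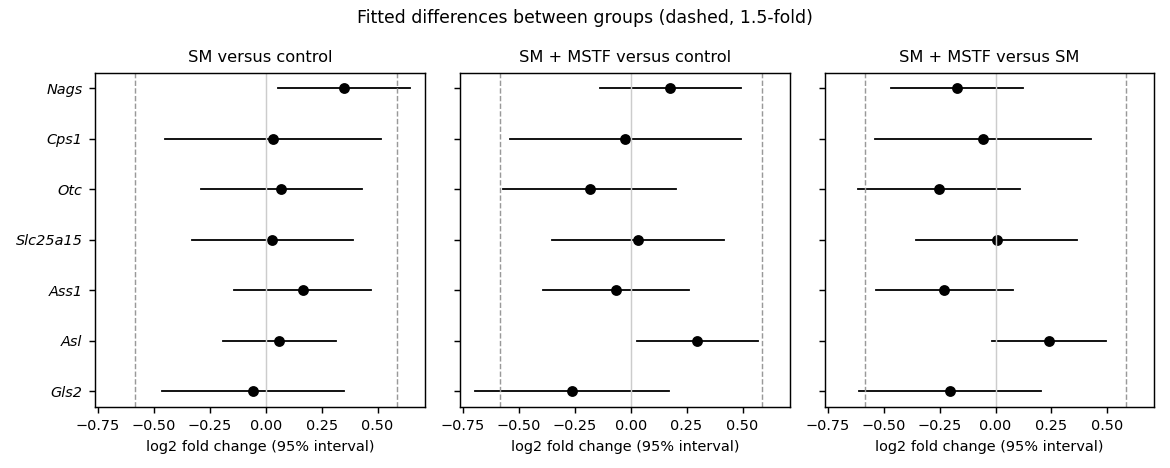
Fitted log2 fold change (point) and its 95% interval (line) of each member in SM against control, SM + MSTF against control and SM + MSTF against SM, from all 10 arrays. The dashed lines mark 1.5-fold. The intervals that do not include 0 are those of Nags in SM against control (0.06 to 0.64) and Asl in SM + MSTF against control (0.03 to 0.57).

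Nags makes N-acetylglutamate, the activator without which carbamoyl phosphate synthetase does not work. Its log2 signal was 11.18, 11.34 and 11.22 in the controls, 11.62, 11.76, 11.45 and 11.56 after SM, and 11.64, 11.49 and 11.14 after SM + MSTF. Every SM array lay above every control array, while the SM + MSTF arrays spanned both groups, with replicate 3 below all controls. The SM mean was 11.60 ± 0.13 (SD, n = 4) and the control mean 11.25 ± 0.09 (SD, n = 3). The difference of 0.35 (95% interval 0.06 to 0.64, or 1.04-fold to 1.56-fold) had an adjusted p of 0.218 in limma and was not called. Groups that did not overlap were found for 2 of 7 members in SM against control, Nags and Ass1, and for 18% of all tested probes. Leaving out each array in turn moved the difference of Nags between 0.29 and 0.40.

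Cps1, carbamoyl phosphate synthetase, fixes ammonia in the mitochondrion and starts the cycle. On the log2 scale it read 11.01, 11.24 and 11.39 in the controls, 11.27, 11.57, 10.88 and 11.27 after SM, and 11.54, 11.31 and 10.72 after SM + MSTF. All 3 groups overlapped, with the highest array in SM (replicate 2) and the lowest in SM + MSTF (replicate 3). The difference was 0.03 in SM against control (95% interval -0.45 to 0.51), -0.02 in SM + MSTF against control (-0.54 to 0.49) and -0.06 in SM + MSTF against SM (-0.54 to 0.43). The intervals of Cps1 were the widest among the 7 members in each of the 3 comparisons.

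Otc, ornithine transcarbamylase, joins carbamoyl phosphate to ornithine to form citrulline. Its log2 signal was 13.58, 13.73 and 13.94 in the controls, 13.74, 14.05, 13.73 and 13.74 after SM, and 13.72, 13.77 and 13.20 after SM + MSTF. In the SM group 3 arrays lay close together and replicate 2 stood above them, and SM + MSTF replicate 3 was the lowest of all arrays. The difference was 0.07 in SM against control (95% interval -0.29 to 0.43), -0.18 in SM + MSTF against control (-0.57 to 0.20) and -0.25 in SM + MSTF against SM (-0.61 to 0.11).

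Slc25a15 is the mitochondrial carrier that brings ornithine in and takes citrulline out. On the log2 scale it read 11.53, 11.50 and 11.81 in the controls, 11.65, 11.74, 11.56 and 11.62 after SM, and 11.92, 11.78 and 11.23 after SM + MSTF. The SM arrays lay inside the range of the controls, and the SM + MSTF group held both the highest and the lowest of the 10 arrays. The difference was 0.03 in SM against control (95% interval -0.33 to 0.39), 0.03 in SM + MSTF against control (-0.35 to 0.42) and 0.00 in SM + MSTF against SM (-0.36 to 0.36).

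In the cytosol, Ass1 joins citrulline and aspartate to argininosuccinate. Its log2 signal was 15.38, 15.28 and 15.27 in the controls, 15.51, 15.46, 15.47 and 15.47 after SM, and 15.46, 15.41 and 14.87 after SM + MSTF. The 4 SM arrays agreed closely (15.48 ± 0.02, SD, n = 4) and all lay above the controls (15.31 ± 0.06, SD, n = 3), while SM + MSTF replicate 3 lay below every other array. With 75th percentile scaling the SM arrays lay further apart, at 15.70, 15.56, 15.58 and 15.42, all still above the controls. The difference in SM against control was 0.16 (95% interval -0.14 to 0.47), with an adjusted p of 0.603 in limma. With 75th percentile scaling it was 0.30 (adjusted p 0.387 in limma). The fit shares 1 estimate of the spread over the 3 groups, and the SD of Ass1 was 0.33 in SM + MSTF. With only the control and SM arrays in limma, Ass1 had an adjusted p of 0.348. With the methods' t-test it had an unadjusted p of 0.00364 and an adjusted p of 0.0912 in SM against control, and over all alternatives its adjusted p was 0.0912 to 0.834.

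Asl splits argininosuccinate into arginine and fumarate. On the log2 scale it read 11.01, 11.03 and 11.005 in the controls, 10.91, 11.34, 10.96 and 11.10 after SM, and 11.29, 11.42 and 11.23 after SM + MSTF. The SM arrays lay on both sides of the controls, and all SM + MSTF arrays lay above the controls. The difference in SM + MSTF against control was 0.30 (95% interval 0.03 to 0.57, or 1.02-fold to 1.49-fold), with an adjusted p of 0.487 in limma. In that comparison Asl was the only member whose groups did not overlap (1 of 7, against 15.4% of all tested probes), and within the first slide, with SM + MSTF replicate 3 against the controls, the difference was 0.22. The groups of 0 of 7 members did not overlap between SM + MSTF and SM, beside 14.7% of all tested probes.

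Gls2, the glutaminase of hepatocytes, frees ammonia from glutamine next to the cycle. On the log2 scale it read 13.23, 13.22 and 13.33 in the controls, 13.30, 13.25, 13.24 and 13.01 after SM, and 13.43, 13.02 and 12.54 after SM + MSTF. The SM + MSTF arrays held the highest and the lowest of the 10 signals, and the SM arrays overlapped the controls. The difference was -0.06 in SM against control (95% interval -0.46 to 0.35), -0.26 in SM + MSTF against control (-0.70 to 0.17) and -0.20 in SM + MSTF against SM (-0.61 to 0.20).

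**Figure D2:**
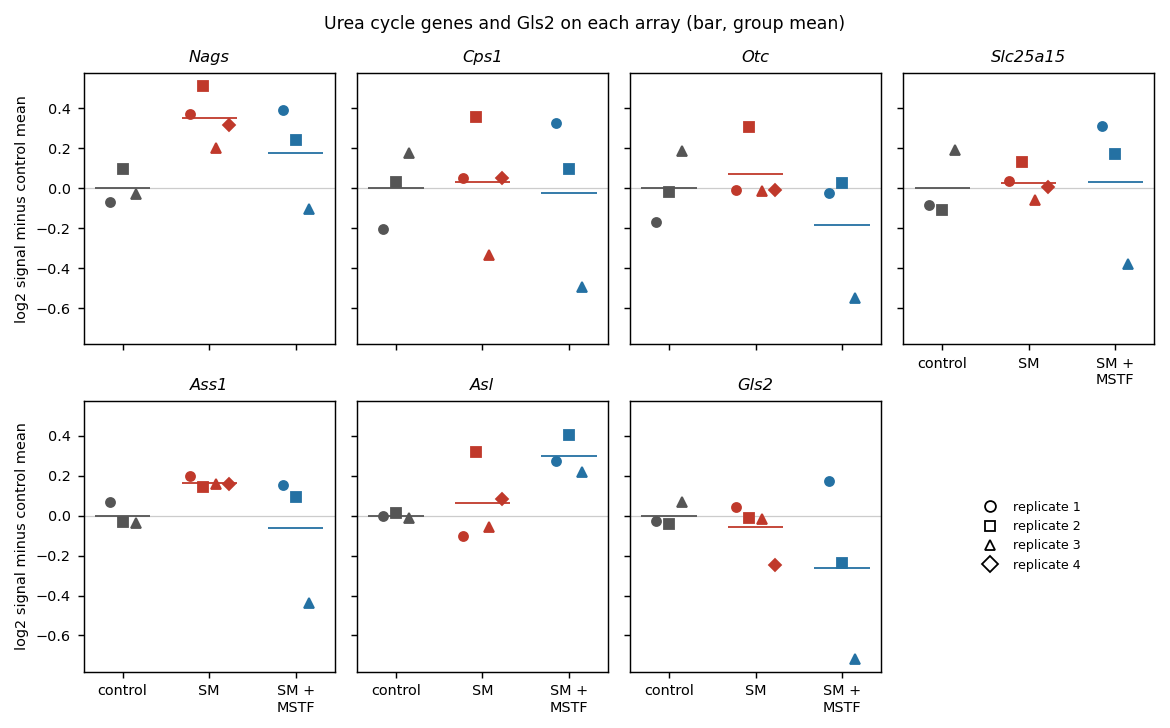
Log2 signal of each member on each of the 10 arrays, less the mean of the 3 control arrays of that gene. Points are arrays, symbols mark the replicate number of the labels and bars the group means. SM + MSTF replicate 3 (blue triangle) lies lowest for Nags, Cps1, Otc, Slc25a15, Ass1 and Gls2, but not for Asl (0.22).

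Within the SM + MSTF group the log2 signals of a member spanned 0.59 in the median, beside 0.35 over all tested probes. SM + MSTF replicate 3 gave the lowest of the 10 signals for 6 of 7 members, beside 18.5% of all tested probes, the largest such share of any array. The same array also held the highest signal of 13.7% of all tested probes, again the largest share, but of 0 of 7 members. With 75th percentile scaling it was 5 of 7 (Nags was then lowest on control replicate 1), and with normexp background correction and with the deposited values 6 of 7. This count was chosen after its values were seen. Relative to the control mean, this array stood at -0.72 for Gls2 (0.607-fold), -0.55 for Otc (0.684-fold), -0.50 for Cps1 (0.709-fold), -0.44 for Ass1 (0.738-fold), -0.38 for Slc25a15 (0.769-fold) and -0.11 for Nags (0.929-fold). The median over the 7 members was -0.44, against -0.01 over all tested probes, and the other 9 arrays had member medians of -0.07 to 0.31. The median SD of the members was 0.09 among controls, 0.13 among SM arrays and 0.33 among SM + MSTF arrays, where all tested probes had 0.15, 0.18 and 0.19.

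Because this array shared the first slide with the controls, its distance from them is also the comparison within a slide, which rests on a single treated rat. With the slide as a fixed block, the difference of SM + MSTF against control equals that distance. It was -0.72 for Gls2, -0.55 for Otc, -0.50 for Cps1, -0.44 for Ass1, -0.38 for Slc25a15, -0.11 for Nags and 0.22 for Asl. With 1 treated array on that slide, no p is given for it. Without SM + MSTF replicate 3, SM + MSTF against control turned from -0.02 to 0.21 for Cps1, from -0.18 to 0.00 for Otc and from -0.06 to 0.12 for Ass1, and moved from -0.26 to -0.03 for Gls2. It then stood at 0.32 for Nags, 0.34 for Asl and 0.24 for Slc25a15, and 0 of 7 members were called among 248 probes.

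**Figure D3:**
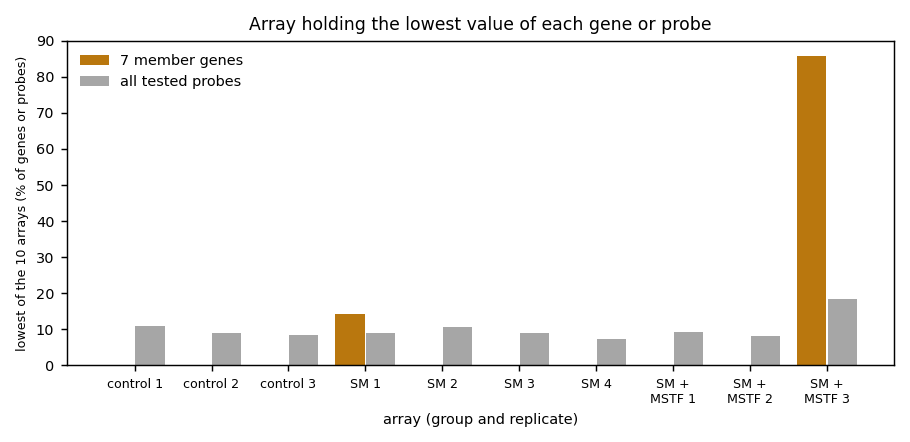
For each of the 10 arrays, the percentage of the 7 members (orange) and of all tested probes (grey) whose lowest signal lies on that array. SM + MSTF replicate 3 holds the lowest signal of 6 members and of 18.5% of probes, and SM replicate 1 that of Asl.

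In share of probes above background and in ratio of signal to background, that array lay inside the range of the others. The share was 57.9% and the median ratio 2.40, with 2.20 to 2.54 on all arrays. These values do not measure RNA quality. Over all tested probes, pairs of arrays correlated at 0.988 to 0.991 among controls, 0.983 to 0.989 in SM and 0.977 to 0.988 in SM + MSTF. Between SM and SM + MSTF arrays the correlations were 0.969 to 0.986. Which pairs were lowest is not given here. Of 9 hepatocyte markers, 9 were well above background on every array. Their summed signal was 2271750, 2209040 and 2310260 in the controls, 2234070, 2317030, 2127240 and 2219850 after SM, and 2053340, 2295510 and 2090050 after SM + MSTF, with the probe of transferrin (Tf) the brightest. Among the brightest probes quantile normalization sets the signal by rank, so that Tf had the same log2 signal (18.72) on 5 arrays, and this sum does not measure hepatocyte content. The brightness of a probe does not rank transcripts of different genes, here or in the lists below. No hepatocyte marker was called in any comparison. Of the 9 markers 2 were lowest and 2 highest on SM + MSTF replicate 3, leaving aside Tf. The 5 arrays that shared the highest signal of Tf included that array. In whole liver RNA, fewer cells of a type and less RNA per cell cannot be told apart, and the part of either in these signals was not tested.

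In likeness of pattern, taken as the root mean square difference of standardised log2 signals over the 10 arrays, the 21 pairs of members ran from 0.510 (Cps1 and Slc25a15) to 1.61 (Asl and Gls2), with a median of 0.845. Among 11790 probes of other named genes, the closest to Gls2 were Ihh (0.273), Iftap (0.343), Tmem168 (0.350), C13h2orf76 (0.361) and Reg4 (0.361), beside a median of 1.39. The closest to Cps1 were Pkig (0.298), Cd151 (0.363), Agxt2 (0.368), Phb2 (0.371) and Clcn2 (0.401), beside a median of 1.36. These are descriptions over 10 arrays, on which SM + MSTF replicate 3 weighs heavily.

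The 250 bases before the start of transcription are shown for Cps1, Otc, Ass1 and Gls2, 4 of the members that were lowest together on SM + MSTF replicate 3. They are from RefSeq (GRCr8), 5′ to 3′ in the direction of transcription, at chr9:76063613-76063862 (plus strand) for Cps1, chrX:15202474-15202723 (minus strand) for Otc, chr3:35149480-35149729 (plus strand) for Ass1 and chr7:1201629-1201878 (plus strand) for Gls2. Capitals mark matches on either strand to any of 5 motifs, whose letters are given below, and no matches overlap.
Cps1: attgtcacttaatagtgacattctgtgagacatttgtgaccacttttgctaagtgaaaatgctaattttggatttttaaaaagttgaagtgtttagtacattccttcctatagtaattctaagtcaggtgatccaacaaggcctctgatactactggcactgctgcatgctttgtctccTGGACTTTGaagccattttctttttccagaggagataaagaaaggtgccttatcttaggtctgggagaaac
Otc: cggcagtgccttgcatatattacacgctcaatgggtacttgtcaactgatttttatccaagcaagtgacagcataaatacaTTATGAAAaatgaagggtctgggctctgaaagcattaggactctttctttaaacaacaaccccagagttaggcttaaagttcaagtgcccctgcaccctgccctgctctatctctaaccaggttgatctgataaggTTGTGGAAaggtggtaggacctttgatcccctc
Ass1: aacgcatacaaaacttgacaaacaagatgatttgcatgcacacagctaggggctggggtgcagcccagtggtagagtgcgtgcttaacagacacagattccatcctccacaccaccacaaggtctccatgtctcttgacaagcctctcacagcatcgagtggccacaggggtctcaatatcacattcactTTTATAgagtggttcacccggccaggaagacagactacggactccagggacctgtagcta
Gls2: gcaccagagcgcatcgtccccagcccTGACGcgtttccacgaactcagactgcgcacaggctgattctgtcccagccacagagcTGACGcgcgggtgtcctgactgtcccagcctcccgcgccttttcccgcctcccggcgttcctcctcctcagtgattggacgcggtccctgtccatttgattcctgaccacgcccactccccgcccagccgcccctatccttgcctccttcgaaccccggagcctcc

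Cps1 held the letters CAAAGTCCA, a motif of HNF4, on the minus strand from 71 bases before the start, and these are found in 0.338% of the 33469 windows of this length in the table. Otc held the C/EBP-like letters TTNNGNAA from 169 and 33 bases before the start, and Slc25a15 held them from 219 (minus strand) and 173 bases before its start, where 37.2% of all windows held at least 1 match. Gls2 held TGACG, the core of the CREB site, from 224 and 166 bases before the start (18.2%), and Ass1 held the TATA box letters TATAAA on the minus strand from 60 bases before the start (12.9%). No member window held AGAACA, the repeated unit bound by the glucocorticoid receptor (17.5%). The table matched 7 of 7 members, Gls2 with 2 starts, and the windows of Nags, Asl and the other start of Gls2 held none of the 5 motifs. A match describes the letters only.

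Around the cycle, the ammonia and glutamine genes gave a single call. Of 11 tested genes of this list, 0 were called in SM against control or SM + MSTF against control, and in SM + MSTF against SM 0 were called higher and 1 lower. The gene was Rhbg, an ammonium transporter of the hepatocytes around the central vein. Its log2 signal was 9.31, 9.89 and 9.18 in the controls, 9.90, 9.87, 9.84 and 10.04 after SM, and 8.88, 9.25 and 9.04 after SM + MSTF. All SM arrays lay above all SM + MSTF arrays, and the controls overlapped both groups, with replicate 3 inside the range of the SM + MSTF arrays and replicate 2 inside that of the SM arrays. Rhbg fell in SM + MSTF against SM by 0.86 on the log2 scale (95% interval -1.23 to -0.48, adjusted p 0.0431 in limma). The call was lost when any 1 array of these groups was left out (adjusted p 0.0679 to 0.137), with slides as random blocks (0.107), and with normexp, no dim filter or the probes detected on all arrays. The median log2 fold change of the list was -0.14, -0.08 and 0.09 in the 3 comparisons.

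Of 14 tested carriers and helpers of the cycle, 1 was called higher and 0 lower in SM against control, and 0 in the other comparisons. It was Slc14a1, a urea channel. On the log2 scale it read 5.20, 4.92 and 5.37 in the controls, 6.04, 5.73, 6.06 and 6.22 after SM, and 5.23, 5.25 and 5.48 after SM + MSTF, and it was well above background on 2 of 3 control arrays and on all others. The SM arrays lay above all arrays of both other groups. Slc14a1 rose in SM against control by 0.85 on the log2 scale (95% interval 0.52 to 1.18, adjusted p 0.0226), was 0.15 in SM + MSTF against control (-0.20 to 0.51) and -0.69 in SM + MSTF against SM (adjusted p 0.0567, not called). With normexp the rise was 0.35, under the fold minimum, and leaving out 1 array gave adjusted p of 0.0209 to 0.0931, with the call lost for 5 of 7 arrays. With the slide as a random block the adjusted p was 0.0702.

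Among 15 tested genes of ornithine, proline and polyamine use, 0 were called in any comparison. Srm, spermidine synthase, had 10.56, 10.14 and 10.17 in the controls, 10.99, 10.99, 11.01 and 10.71 after SM, and 10.80, 10.72 and 10.34 after SM + MSTF. Odc1, ornithine decarboxylase, had 9.60, 9.47 and 9.49 in the controls, 10.15, 10.44, 10.28 and 9.72 after SM, and 9.99, 9.64 and 9.20 after SM + MSTF. For Srm and Odc1 every SM array lay above every control array (18% of all tested probes had no overlap, in either direction), and the differences were 0.63 for Srm (95% interval 0.30 to 0.97, adjusted p 0.0615) and 0.63 for Odc1 (0.17 to 1.09, adjusted p 0.158). The other probe of Odc1 gave 0.38. Amd1 and Sms, which also serve polyamine synthesis and were chosen after their values were seen, differed by -0.15 (-0.45 to 0.16) and -0.14 (-0.93 to 0.64) in SM against control. Agmat, agmatinase, had the largest p of the list in SM against control, with a difference of 0.04 (-0.29 to 0.36). On SM + MSTF replicate 3 were the lowest signals of 8 and the highest of 1 of these 15 genes, beside 18.5% and 13.7% of all tested probes. The 8 included Oat, ornithine aminotransferase, named after its values were seen, at 13.48 there against 14.39 to 15.61 on the other arrays.

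**Figure D4:**
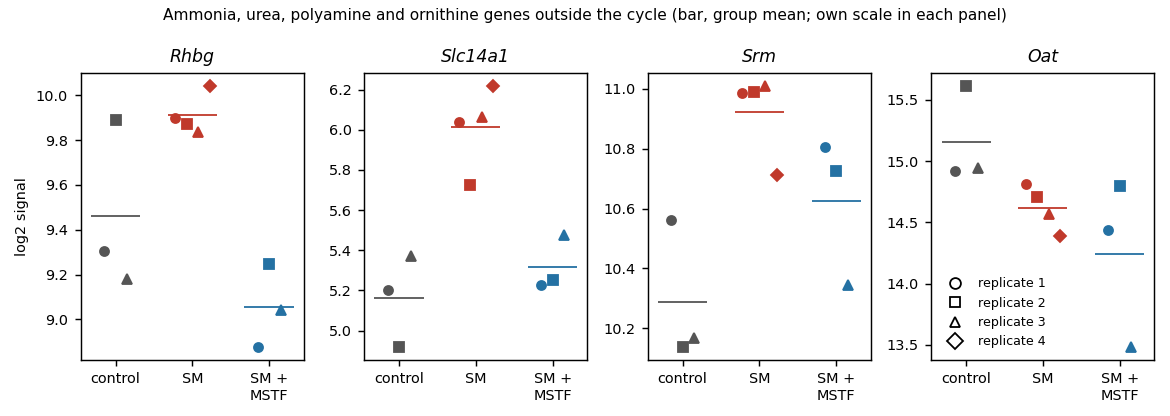
Log2 signal of Rhbg, Slc14a1, Srm and Oat on each of the 10 arrays, with symbols for the replicate number, bars for the group means and a scale of its own in each panel. Rhbg and Slc14a1 were called, Rhbg in SM + MSTF against SM (-0.86) and Slc14a1 in SM against control (0.85), and Oat is lowest on SM + MSTF replicate 3 (13.48).

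Of 37 tested genes of amino acid breakdown, 0 were called in any comparison. The median log2 fold change was 0.15 in SM against control, -0.02 in SM + MSTF against control and -0.10 in SM + MSTF against SM. In SM against control 27 were higher and 10 lower, while 55.9% of all tested probes were higher. Aadat, an aminotransferase of lysine and kynurenine breakdown, differed by -0.39 in SM against control (95% interval -0.60 to -0.19, adjusted p 0.0550) and by -0.55 in SM + MSTF against control (-0.77 to -0.33, adjusted p 0.348), without overlap with the controls in either. Amdhd1, of histidine breakdown, differed by -0.40 in SM against control (adjusted p 0.153). Ddc, aromatic amino acid decarboxylase, had the largest p in SM against control (-0.03, 95% interval -0.83 to 0.76), and its signal was 12.50 on SM + MSTF replicate 3 and 14.09 to 14.50 on the other arrays. That array was the lowest for 13 and the highest for 4 of the 37 genes, beside 18.5% and 13.7% of all tested probes.

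Of 21 tested regulators 0 were called in any comparison, and their median log2 fold change was 0.07, 0.15 and 0.03. Prox1, a hepatocyte transcription factor, differed by -0.39 in SM against control (95% interval -0.67 to -0.11, adjusted p 0.145). Nr0b2, the nuclear receptor that represses bile acid synthesis, differed by 1.59 with a wide interval (0.12 to 3.07, adjusted p 0.266), and Foxa1 by 0.00 (-0.49 to 0.49). Of 11 tested periportal genes 0 were called in any comparison. Hal, which breaks down histidine, differed by -0.21 in SM against control (-0.46 to 0.05), Sds, serine dehydratase, by -0.59 (-1.37 to 0.18) and Ctsc, a lysosomal protease, by 0.01 (-0.33 to 0.36). Of 12 tested pericentral genes, Rhbg, which is also in the ammonia list, was the only call (1 lower, in SM + MSTF against SM). The medians were -0.10, -0.04 and 0.11 for the periportal list and 0.12, -0.13 and -0.07 for the pericentral list.

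**Figure D5:**
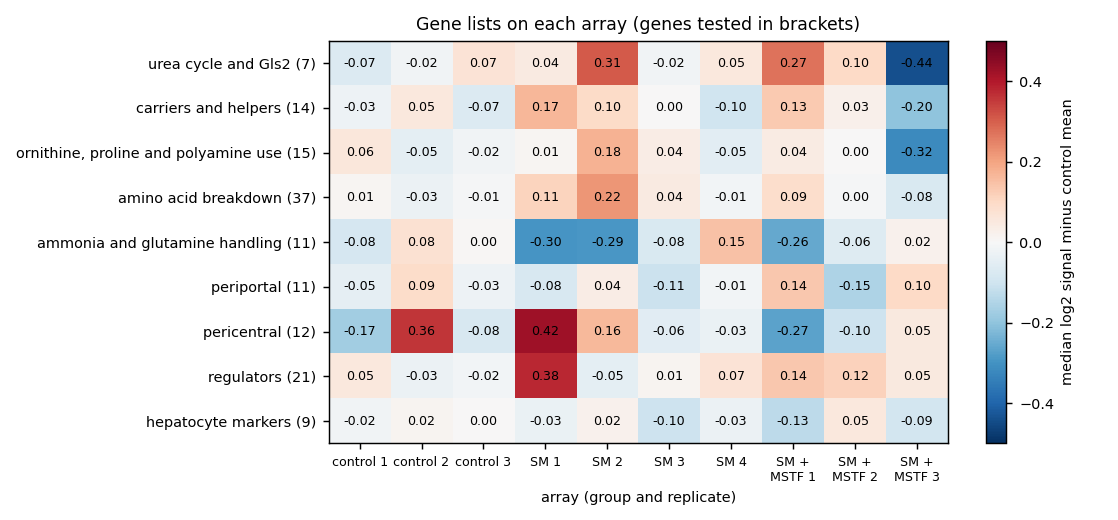
Median over the tested genes of each list of the log2 signal less the control mean of the gene, on each of the 10 arrays (colour and number), with the number of genes in brackets. On SM + MSTF replicate 3 the median was -0.44 for the urea cycle genes with Gls2, -0.32 for ornithine, proline and polyamine use, -0.20 for carriers and helpers and -0.09 for hepatocyte markers. Lists of markers of other cells, not drawn, reached lower medians on it.

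Markers of other liver cells were read as whole lists. Of 8 Kupffer cell and macrophage markers 0 were called. Their median was -0.12 in SM against control (0 higher, 8 lower), 0.29 in SM + MSTF against control (8 higher, 0 lower) and 0.41 in SM + MSTF against SM (8 higher, 0 lower), and the probe of Clec4f was the brightest. Their summed signal was 72565, 65854 and 92298 in the controls, 54151, 45042, 78575 and 81499 after SM, and 69902, 85181 and 90290 after SM + MSTF. The groups overlapped, and the sum of SM + MSTF replicate 3 lay below that of control replicate 3. The 6 tested T cell and natural killer cell markers had a median of -0.33 in SM against control (1 higher, 5 lower) and 0.33 in SM + MSTF against SM (5 higher, 1 lower). Cd8b, chosen after its values were seen, went the other way, by 0.60 (adjusted p 0.0810) and -0.58 (adjusted p 0.123). Of these markers Klrd1 was called lower in SM against control (-1.22, adjusted p 0.0277) and higher in SM + MSTF against SM (1.15, adjusted p 0.0455), and it was well above background on 2 of 4 SM arrays. With normexp the differences of Klrd1 were -0.36 and 0.29, under the fold minimum. Both calls were also lost with no dim filter, with the slide as a random block and without several single arrays (adjusted p up to 0.110 and 0.113).

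None of the other marker lists held a call. Tested were 4 endothelial, 7 stellate and matrix, 2 bile duct, 1 B cell, 2 neutrophil, 3 erythroid and 2 intestine or kidney markers. The summed signal of the stellate and matrix list, with Col3a1 the brightest probe, was 25447 to 28248 in the controls, 19652 to 20991 after SM and 16473 to 27533 after SM + MSTF, where replicate 3 was the lowest and replicate 2 lay among the controls. The sum does not give the direction of each gene, and of the 7 genes 3 were higher and 4 lower in SM against control. They ran from -0.99 for Col1a1 to 0.70 for Rgs5, both chosen after their values were seen. The other probe of Col1a1 gave -0.42. The endothelial sum (Kdr the brightest probe) ran from 16734 to 22080 over the 10 arrays and the erythroid sum (Hbb the brightest probe) from 4595 to 18905, with SM + MSTF replicate 3 inside both ranges. The neutrophil sum (S100a9 the brightest probe) ran from 255 to 1554, the bile duct sum (Epcam the brightest probe) from 372 to 1182 with the lowest on SM + MSTF replicate 3 and the sum of T cell and natural killer cell markers (Nkg7 or Cd3d the brightest probe) from 873 to 2130, with the highest on SM + MSTF replicate 3. Csf3r and Elane among neutrophil, Spp1 and Cftr among bile duct and Cd3e among T cell markers did not pass the filter on background. Of the markers of intestine and kidney, tissues that also express urea cycle genes, Vil1 and Umod did not pass it, and the list's sum, mostly Aqp2, was 3551 to 6110. Fabp2, an intestine marker chosen after its values were seen, had a log2 signal of 9.0004 on SM + MSTF replicate 3, the lowest of 10 arrays (9.61 to 10.32 on the others), and differed by -0.60 in SM + MSTF against control (95% interval -1.07 to -0.14, adjusted p 0.444). The median of this list was -0.49 in SM + MSTF against control.

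Relative to the control mean, the median on SM + MSTF replicate 3 was -0.68 for bile duct, -0.57 for intestine or kidney and -0.55 for stellate and matrix markers, each below the -0.44 of the members. It was 0.99 for neutrophil, 0.52 for erythroid and 0.40 for T cell and natural killer cell markers, 0.24 for Kupffer cell and macrophage markers and 0.17 for endothelial markers. Of the 2 tested intestine or kidney genes, Fabp2 was lowest on that array. Aqp2 had a log2 signal of 11.97 there, inside the range of the controls (11.82 to 12.28). The part of these cells in the members' signals was not tested.

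The B cell marker tested was Cd79b, a chain of the B cell receptor. Its signal on the log2 scale was 6.42, 6.65 and 6.02 in the controls, 3.57, 4.28, 5.04 and 3.84 after SM, and 5.63, 3.09 and 6.21 after SM + MSTF, and it was well above background on 3 of 3 control, 2 of 4 SM and 2 of 3 SM + MSTF arrays. All SM arrays lay below all controls, and the SM + MSTF arrays lay on both sides. The difference was -2.18 in SM against control (95% interval -3.65 to -0.72, adjusted p 0.125) and -1.39 in SM + MSTF against control (-2.95 to 0.18, adjusted p 0.564), and neither was called. As the probe was not well above background on every treated array, the size of these differences is uncertain.

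The control genes gave no call. Actb differed by 0.04 in SM against control (95% interval -0.39 to 0.47) and Gapdh by 0.17 (-0.12 to 0.47), and on SM + MSTF replicate 3 their log2 signals were 15.47 and 15.33, against 14.97 to 15.62 and 15.43 to 15.95 on the other arrays. Gapdh was thus also lowest on that array, and Actb was not.

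The limits of these data are those of 3 or 4 rats per group and 1 array per rat. The intervals of some members reached past 1.5-fold, to 1.56-fold for Nags in SM against control and to 0.617-fold for Gls2 in SM + MSTF against control. In SM + MSTF against SM they reached 0.654-fold for Otc and 0.655-fold for Gls2. Changes of that size could be missed. The comparisons of SM with control and with SM + MSTF each hold a difference between slides that cannot be removed. SM + MSTF replicates 1 and 2 lay on a slide of their own, so that the distance between replicate 3 and the others also holds a difference between slides. Each member was read by a single probe, so no other probe could check it. Arrays give RNA signals only, and enzyme activity, ammonia and urea were not measured on them. The livers were taken at a single time.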

How the data were processed

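The authors labelled liver RNA with Cy3, hybridized it and quantified every spot in Feature Extraction (10.7.3.1 per the file headers), which gives a background-subtracted intensity. They deposited log2 values after quantile normalization in GeneSpring. Those log2 columns (median 5.18, scale and direction read from the scanner files, no centring per probe found) served as an alternative. Here, control spots and nonuniform spots (0 to 4 on an array) were dropped, and the intensities were quantile normalized, put on the log2 scale and averaged per probe (R 4.3.3, limma 3.58.1). Probes were named through RefSeq accessions (GRCr8), 17512 of 41012. Comparisons used lmFit and eBayes, tested on simulated data. A gene with several probes took the one of highest mean signal. In each list, called genes were named, or else the 2 with the smallest and the 1 with the largest p in SM versus control. Members and lists were chosen with earlier results of these data known. Alternatives covered scaling, background (normexp on median signal and median background, since the files hold no mean signal), filter, call rule, block and single arrays.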

Additional observations from a re-analysis of the deposited data

Results flagged for a closer look

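In the SM group, the only one with 4 arrays, the gap between the farthest array and its nearest neighbour, as a share of the group's range, was above Dixon's 95% critical value for 4 of 23 named genes. Chance gives such a gap in about 1 of 20 groups. The gap was 0.972 for Otc, where replicate 2 (14.05) stood above the other arrays (up to 13.74). It was 0.927 for Srm, with replicate 4 the lowest (10.71), 0.941 for Prox1, with replicate 1 the lowest (5.42), and 0.962 for Gapdh, with replicate 4 the highest (15.95). For the remaining 6 members the gap was 0.460 (Nags) to 0.793 (Gls2). The control and SM + MSTF groups, of 3 arrays each, were not tested in this way. All gaps were taken with the main scaling only. With 75th percentile scaling Otc read 13.83, 14.13, 13.81 and 13.72 after SM. Replicate 2 was still the highest, but the other SM arrays lay further apart, so the flag of Otc depends on the scaling.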

How the results depend on the processing

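Under the alternatives tried, 0 of 7 members were called in each comparison. Some alternatives change only the test, the filter or the threshold and leave the fold change as it was. Of the member values under the others, 72 of 84, 66 of 77 and 73 of 84 kept their direction in SM against control, SM + MSTF against control and SM + MSTF against SM. The lowest adjusted p of a member in limma was 0.133 in SM against control and 0.202 in SM + MSTF against SM. In SM + MSTF against control it was 0.349 (Nags, without SM + MSTF replicate 3), leaving aside the fixed slide block, which rests on a single treated rat. Alternatives for Rhbg, Slc14a1 and Klrd1 and the scalings for the lowest array were chosen after seeing the data. Where a value reversed or moved, the cause was not tested.

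Probes called in SM against control (553) came to 217 with normexp, 342 with no filter on dim probes, 336 with probes well above background on all arrays, 1131 and 320 with the methods' t-test unadjusted and adjusted, and 85 with slides as random blocks (consensus correlation 0.109). Leaving out single arrays gave 61 (control replicate 2) to 321 (SM replicate 2). In SM + MSTF against control (0 in limma, 2193 at an unadjusted p under 0.05) they came to 285 with the methods' t-test unadjusted. Leaving out single arrays gave 0 to 248 there (without SM + MSTF replicate 3). In SM + MSTF against SM (290) they came to 57 with normexp, 140 with probes well above background on all arrays, 147 with only these groups in the fit, 863 and 13 with the methods' t-test unadjusted and adjusted, 102 with slides as random blocks and 96 (without SM replicate 1) to 291. The fixed slide block gave no value for comparisons with SM, which share no slide. Its count in SM + MSTF against control is not given, since that comparison rests on a single treated rat.

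With the replicate block, a paired fit by the numbers in the labels, 53 probes were called in SM against control and 64 in SM + MSTF against SM. Gls2 reversed to 0.0055 in SM against control and Slc25a15 to -0.0026 in SM + MSTF against SM. The correlation between arrays of the same number, after removing group means, was 0.169, 0.0721 and -0.0993 in SM against control. It was 0.120, -0.0702 and -0.0588 in SM + MSTF against control and 0.0686, 0.117 and 0.0478 in SM + MSTF against SM. With so few arrays, these values cannot decide whether the numbers pair the rats.

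Reversed in SM against control were Cps1 (-0.018) and Slc25a15 (-0.0144) with slides as random blocks. In SM + MSTF against control Slc25a15 reversed to -0.0242 with slides as random blocks and, with it fixed, Slc25a15 to -0.380 and Nags to -0.106. In SM + MSTF against SM Slc25a15 reversed to -0.0242 with 75th percentile scaling, -0.0032 with normexp and -0.0098 with slides as random blocks.

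Leaving out single arrays gave ranges that crossed 0. In SM against control they were -0.0774 to 0.154 for Cps1, -0.0158 to 0.164 for Otc, -0.0254 to 0.116 for Asl, -0.0264 to 0.126 for Slc25a15 and -0.0907 to 0.0055 for Gls2. In SM + MSTF against control they were -0.199 to 0.213 for Cps1, -0.286 to 0.0003 for Otc, -0.172 to 0.123 for Ass1 and -0.105 to 0.240 for Slc25a15. In SM + MSTF against SM they were -0.230 to 0.181 for Cps1, -0.134 to 0.211 for Slc25a15 and -0.422 to 0.0241 for Gls2. The mean over all tested probes of a gene is identical to the value given, since each member has 1 probe. The median signal over background of 2.20 to 2.54 limits what can be said of dim probes such as that of Klrd1.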

Other observations

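On SM + MSTF replicate 3, which held the lowest signal of 6 of 7 members (not of Asl), some periportal and regulatory genes were high and others low. These genes were named after their values were seen. Pck1, which starts gluconeogenesis, had a log2 signal of 15.57 there, against 13.40 to 15.14 on the other arrays. Sds, also a periportal enzyme of amino acid breakdown, had 10.08 there, against 8.09 to 9.60 elsewhere. Ppargc1a, a coactivator of gluconeogenic genes, had 6.05 there, against 3.78 to 5.70 elsewhere. At the lower of these signals the probe was dim, so the size of this contrast is uncertain. Agmat was also highest on that array (14.63, against 13.95 to 14.39). The periportal list as a whole had a median of 0.10 there relative to the control mean. Of its 11 genes 4 were highest and 2 lowest on that array, beside 13.7% and 18.5% of all tested probes. High values there were not particular to periportal genes. Of the 12 pericentral genes 4 were highest and 3 lowest on that array, with a median of 0.05. The regulators had a median of 0.05 there, with 3 of 21 highest and 3 lowest, the latter Cebpa (8.26), Foxa2 (11.21) and Gcgr (14.15).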
